A study of Mus musculus with 4 samples.

Results

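The DNA replication and mitosis genes are 45 named genes that cells switch on when they divide, 22 of DNA replication and nucleotide synthesis and 23 of mitosis. The first list also holds Lmnb1, which encodes lamin B1 of the nuclear lamina and is counted below with the replication genes. All 45 were chosen by name and found on the array through the accession of each probe. A probe was found for 42 of the 45, and 40 had enough signal to be compared, 21 replication genes and 19 mitotic genes, out of 15995 genes compared in all. The samples were EGFP+ cells of the collecting duct and ureteric bud, sorted from mice at postnatal day 1 and pooled. The knockout cells came from HoxB7CreEGFP+ PRR flox/flox mice, in which the HoxB7 promoter drives Cre recombinase and green fluorescent protein in the ureteric bud lineage, and the wild-type cells from CreEGFP+ PRR+/+ mice, so that Cre and the reporter were present in both genotypes. PRR is the (pro)renin receptor, encoded by Atp6ap2. Knockout RNA was labelled with Cy5 on 2 arrays (KO_vs_WT replicates 1 and 2), with wild-type pool 1 or pool 2 in Cy3, and each wild-type pool was labelled with both dyes on an array of its own (WT_self replicates 1 and 2).

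Before S phase, cells load the ring-shaped Mcm2-7 helicase onto replication origins with the help of Cdc6 and Cdt1, and then copy DNA with polymerases held on the template by the sliding clamp Pcna. Many genes of this step are switched on by E2F transcription factors. Mitotic genes come on later, in G2 and M phase, and many carry a CHR element together with CCAAT boxes, which the MuvB complex and the factor NF-Y bind. In the growing kidney the dividing cells of the ureteric epithelium lie mostly in the branching tips, and cells that mature into collecting duct divide less.

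4 promoters are printed as picked examples of this split, which not all members show, for 2 helicase subunits and 2 mitotic genes described below. They are RefSeq windows of 250 bases before to 50 bases after a start site on GRCm38.p6, read 5′ to 3′ along the gene, with E2F octamers (TTTCGCGC, TTTGGCGC, TTTCCCGC or TTTGCCGC), the CHR element (TTTGAA) and the CCAAT box (CCAAT) in capitals on either strand. Neighbouring motifs can overlap. The Mcm6 window (chr1:128359656-128359955, minus strand) and the second of the Mcm7 windows (chr5:138171834-138172133, minus strand) belong to the helicase. The Ccnb2 window (chr9:70421505-70421804, minus strand) and the Cdc20 window (chr4:118437294-118437593, minus strand) are those of cyclin B2 and of an activator of the anaphase-promoting complex.
Mcm6: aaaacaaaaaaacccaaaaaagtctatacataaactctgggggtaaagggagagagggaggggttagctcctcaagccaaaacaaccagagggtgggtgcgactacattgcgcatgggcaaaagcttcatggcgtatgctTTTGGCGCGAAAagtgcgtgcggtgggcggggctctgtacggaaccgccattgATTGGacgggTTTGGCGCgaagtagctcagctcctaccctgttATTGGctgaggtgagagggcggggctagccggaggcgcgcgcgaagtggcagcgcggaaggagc
Mcm7: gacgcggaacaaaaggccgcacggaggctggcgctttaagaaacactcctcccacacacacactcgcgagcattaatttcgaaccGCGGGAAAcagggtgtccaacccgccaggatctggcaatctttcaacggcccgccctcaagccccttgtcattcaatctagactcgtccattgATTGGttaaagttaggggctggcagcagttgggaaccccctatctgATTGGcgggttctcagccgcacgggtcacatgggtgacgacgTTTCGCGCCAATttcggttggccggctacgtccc
Ccnb2: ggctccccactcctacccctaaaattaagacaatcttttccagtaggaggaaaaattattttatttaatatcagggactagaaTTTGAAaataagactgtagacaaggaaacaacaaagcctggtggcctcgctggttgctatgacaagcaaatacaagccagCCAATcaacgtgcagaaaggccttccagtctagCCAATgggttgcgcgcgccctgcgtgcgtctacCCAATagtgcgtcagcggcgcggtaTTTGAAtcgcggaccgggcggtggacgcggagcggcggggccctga
Cdc20: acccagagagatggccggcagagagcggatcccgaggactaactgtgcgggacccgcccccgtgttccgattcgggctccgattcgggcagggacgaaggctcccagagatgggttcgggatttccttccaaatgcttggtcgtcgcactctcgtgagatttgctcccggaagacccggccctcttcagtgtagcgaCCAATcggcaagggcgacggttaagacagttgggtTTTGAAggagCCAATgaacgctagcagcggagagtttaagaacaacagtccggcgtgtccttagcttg
The Mcm6 window held 3 E2F octamers and no CHR element, and the Ccnb2 window held 2 CHR elements, 3 CCAAT boxes and no E2F octamer. The first Mcm7 window, not printed, held no E2F octamer.

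A window was found for 38 of the 45 genes, 19 of each kind. An E2F octamer was present in 8 of 19 replication genes (42.1%) and in 1 of 19 mitotic genes (5.26%), against 2.6% of 27025 genes with a window. The replication genes with one were Mcm3, Mcm5, Mcm6, Mcm7, Cdc6, Cdt1, Pola1 and Uhrf1, and the mitotic gene was Cdk1. A CHR element was present in 2 of 19 replication genes (10.5%) and in 14 of 19 mitotic genes (73.7%), against 20.2% of all genes. CCAAT boxes were common in both, in 11 and 17 genes, against 41.1% of all genes. A CHR element and a CCAAT box stood together in 1 replication gene and in 14 mitotic genes, against 8.97% of all genes. Mcm2 and Fen1, neither with an E2F octamer, were the 2 replication genes with a CHR element, and Mcm2 also held a CCAAT box. These matches describe letters in the window and are not measured binding sites.

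**Figure D1:**
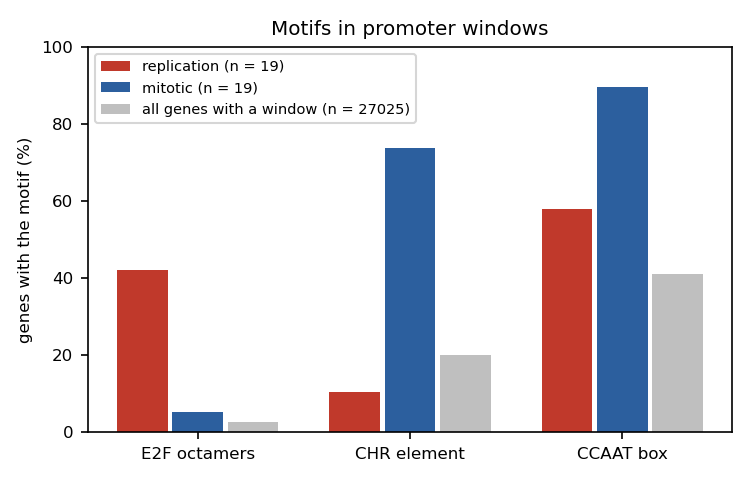
Share of genes, in percent, whose 300-base promoter window holds each motif on either strand, for 19 replication genes, 19 mitotic genes and 27025 genes with a window. The replication bar is highest for the E2F octamers (42.1%) and the mitotic bar for the CHR element (73.7%) and the CCAAT box (89.5%).

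All arrays had usable Cy5 signal, with 22713 and 20796 of 41174 probes well above background on the knockout arrays, 20028 for pool 1 and 18424 for pool 2. In Cy3 KO_vs_WT replicate 1 had almost no signal, with 28 such probes against 14936 to 18574 on the other arrays. Spike-in controls had a median signal of 1786 to 4606 in Cy5 of both knockout arrays and of pool 1, and of 5.60 in Cy5 of pool 2. In Cy3 too they were lower in pool 2, at 57.6 on KO_vs_WT replicate 2 and 50.4 on WT_self replicate 2, against 893 in pool 1. Levels below are therefore log2 Cy5 intensities, set to 1 distribution on all 4 arrays. Cy3 is used to compare the pools and on the array that knockout and pool 2 shared. Beyond that it enters only 1 alternative among the processing checks. The targeted gene, Atp6ap2, read 8.08 and 7.72 on the knockout arrays, against 8.37 in pool 1 and 8.51 in pool 2, a difference of -0.54 ± 0.17 (SE). Where its probe lies relative to the floxed part was not looked up here. Groups follow the source named for each channel. The sample titles name the genotypes the other way round, and if they were right every direction between knockout and wild type would turn. The description field assigns WT_self replicate 1 to pool 2 and replicate 2 to pool 1, and if it were right the pools would change places in every value that rests on these arrays. Pool 2 was also in Cy3 of KO_vs_WT replicate 2, and across genes that channel had r = 0.997 with Cy3 of WT_self replicate 2 and r = 0.954 with Cy3 of WT_self replicate 1. Markers of the sorted cells were present, with 8 of 8 ureteric epithelium genes and 9 of 9 principal cell genes well above background on all 4 arrays. Of 9 nephron progenitor and early nephron genes, 8 and 7 were so on the knockout arrays, against 8 in pool 1 and 6 in pool 2, and Six2 was so on none.

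In Cy5 no replication or mitotic gene passed the test between 2 knockout and 2 wild-type arrays. The limma test called 0 of 15995 genes higher (0%) and 0 lower (0%) at an adjusted p of 0.05, and its smallest adjusted p was 0.801. At an unadjusted p under 0.05 in limma there were 669 genes, of which 1, the lamin gene Lmnb1, is in the replication list and none is in the mitotic list. Differences of the 40 genes had SEs of 0.108 to 0.310 on the log2 scale, and their adjusted p in limma ran from 0.801 to 0.997. The differences of the replication genes had a median of -0.15 (range -0.55 to 0.17), with 15 negative and 6 positive, and those of the mitotic genes a median of -0.035 (range -0.26 to 0.12), with 14 negative and 5 positive. All genes had a median of 0.025, and 44.6% of them were negative. Mcm3, Mcm7, Rrm1, Tk1, Cdc20, Aurka, Birc5, Top2a and Ube2c, among the negative ones, were positive when each array's 75th percentile was subtracted in place of quantile normalization. Both knockout arrays lay below both wild-type arrays in 8 of 21 replication genes and 4 of 19 mitotic genes, against 17.1% of all genes, and above both in 0 and 1, against 22.5%. The same 8 and 4 genes were all that lay below pool 2, against 36.4% of all genes. With 2 arrays against 2, an exact permutation test of 1 gene could not give a p below 0.333. The labels do not say whether the replicate arrays hold separate animals, so p-values measure only the spread between these arrays.

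The wild-type pools lay apart for many of these genes, and the calls depended on which pool was used. Without the pool 1 array, knockout against pool 2 gave 4283 genes past the threshold in limma, 2570 higher (16.1%) and 1713 lower (10.7%), in a test whose spread comes from the 2 knockout arrays and is assumed to hold for pool 2. Among them were Mcm6 (0.62, adjusted p = 0.00699), Uhrf1 (0.54, adjusted p = 0.0109) and Mcm4 (0.37, adjusted p = 0.0486), all higher in knockout, and Lmnb1 (-0.64, adjusted p = 0.00600), lower in knockout. Without the pool 2 array, limma called 0 genes and the differences of Mcm6, Uhrf1 and Mcm4 were negative. Lmnb1 stayed negative, at -0.46 (limma adjusted p = 0.233). Each gene is therefore set against each pool in turn, as values with no test.

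Set against pool 1, knockout levels of these genes were lower almost throughout. Both knockout arrays were below pool 1 in 20 of 21 replication genes and in 16 of 19 mitotic genes, against 38.0% of all genes. Both were above it in 0 and in 1 (Tpx2), against 38.9%. The median difference was -0.28 for replication genes, or 0.826 of the pool 1 level, and -0.15 for mitotic genes, or 0.904 of it, with 0.0013 for all genes. The differences ran from -0.46 to -0.020 among replication genes and from -0.40 to 0.093 among mitotic genes. When the 75th percentile was subtracted instead, 15 of 21 and 11 of 19 were below pool 1, against 30.2% of all genes, and the medians stayed negative at -0.20 and -0.13. Among genes with a mean log2 level of 8 or more, 16 of 16 replication genes and 10 of 12 mitotic genes were below pool 1 on both knockout arrays, against 41.1% of all genes at that level. Dimmer genes have less room to differ, since an offset was added to every intensity. All of these values rest on 1 pool 1 array.

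**Figure D2:**
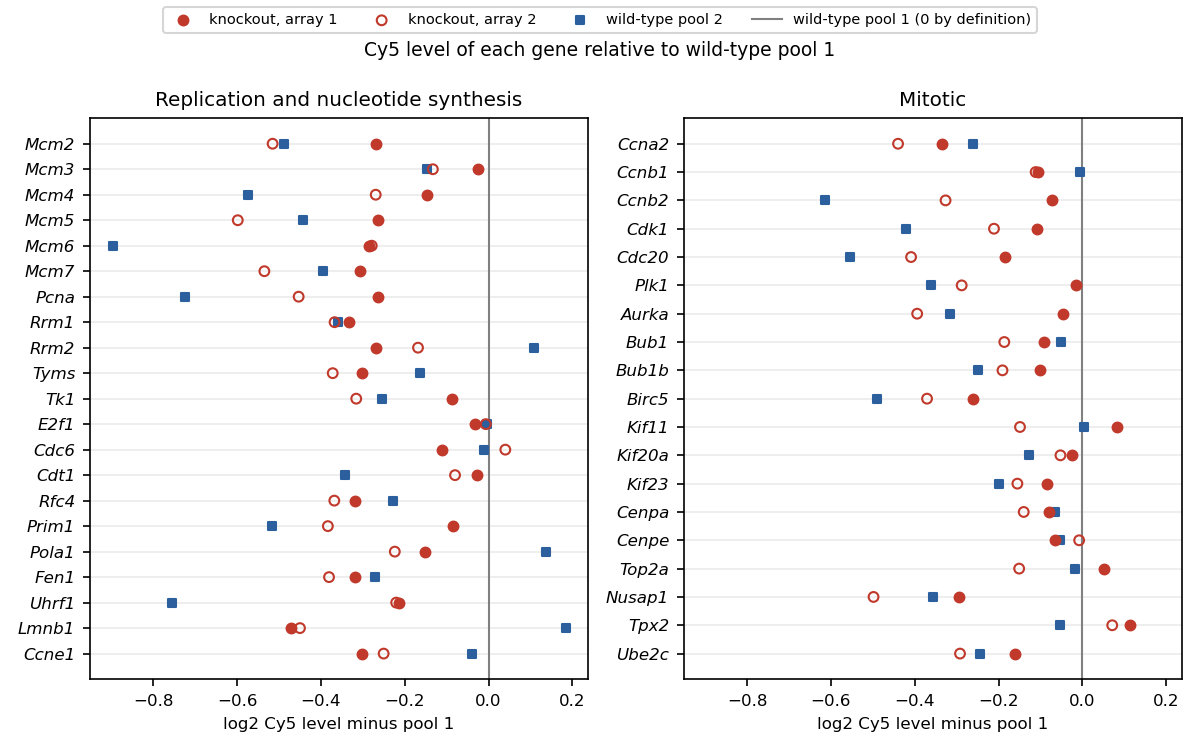
Log2 Cy5 level of each gene minus its level in wild-type pool 1, for 21 replication genes (left) and 19 mitotic genes (right), with filled circles for knockout array 1, open circles for knockout array 2, squares for wild-type pool 2 and the line at 0 for pool 1. Circles lie left of the line in 20 replication and 16 mitotic genes on both arrays, and the pool 2 squares lie left of it in 18 of each.

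Set against pool 2, no such shift was seen after quantile normalization. The median difference was 0.0080 for replication genes, with both knockout arrays below pool 2 in 8 of 21 and above it in 7, and 0.079 for mitotic genes, with 4 of 19 below and 9 above. All genes had a median of 0.049, with 36.4% below and 49.3% above. The replication genes spread widely here, from -0.64 (Lmnb1) to 0.62 (Mcm6). Whether a shift was seen depends on the scaling. With the 75th percentile the medians were 0.28 and 0.18 while that of all genes was -0.064. Both knockout arrays were then above pool 2 in 15 of 21 and 13 of 19 genes, against 41.3% of all genes. With the scanner software's processed signal the replication median was -0.010. In 7 replication and 8 mitotic genes both knockout arrays lay between the pools with pool 1 highest, against 16.3% of all genes.

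Pool 2 was lower than pool 1 for 18 of 21 replication genes and 18 of 19 mitotic genes in Cy5, against 54.6% of all genes. The median difference, pool 2 minus pool 1, was -0.27 for replication genes (0.829-fold) and -0.24 for mitotic genes (0.845-fold), with -0.040 for all genes. In 10 replication genes and 6 mitotic genes pool 2 was at least 1.25-fold lower, against 20.1% of all genes. The direction held with the 75th percentile, with 18 of 21 and 17 of 19 lower, against 44.1% of all genes. The same pools were also labelled with Cy3, pool 2 on 2 arrays and pool 1 on 1, and 39 of the 40 genes could be read there. Both pool 2 channels were below pool 1 in 16 of 21 replication genes and 15 of 18 mitotic genes, against 45.7% of all genes, with median differences of -0.20 and -0.14. Across the 39 genes the Cy3 and Cy5 differences had r = 0.887 and rho = 0.858, as a description of genes that share the same probes, the same pools and the same self arrays. The repeat of pool 2 in Cy3 differed from the first by a median of -0.013 for replication genes and 0.0080 for mitotic genes. With 1 pool against 1 pool there is no test.

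**Figure D3:**
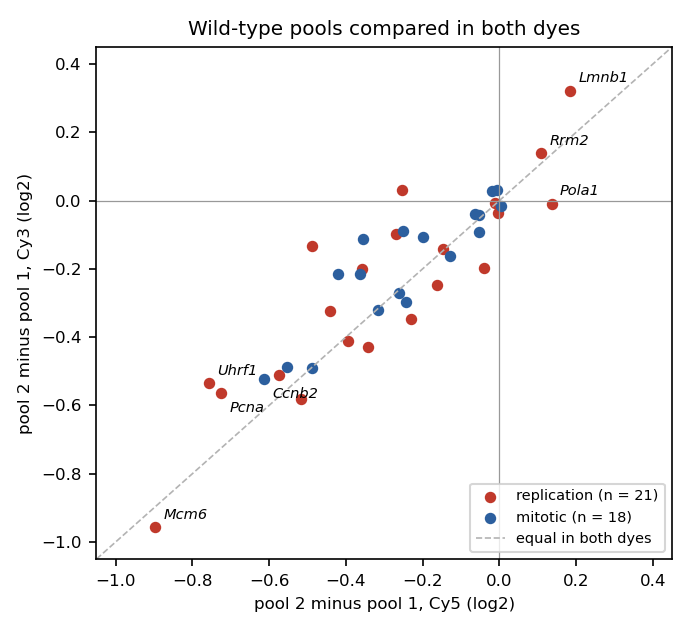
Wild-type pool 2 minus pool 1 in log2 units, in Cy5 (horizontal) and Cy3 (vertical), 1 point per gene, for 21 replication and 18 mitotic genes, with the dashed line where both dyes give the same difference. Points lie mostly at the lower left, from Mcm6 at -0.90 and -0.96 to Lmnb1 at 0.18 and 0.32.

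The 6 subunits of the Mcm2-7 helicase, which unwinds DNA at the replication fork, were all lower in pool 2 than in pool 1. Mcm6 read 11.96 and 11.97 on the knockout arrays, against 12.25 in pool 1 and 11.35 in pool 2. Knockout was 0.822-fold of pool 1 and 1.53-fold of pool 2, and pool 2 was 0.537-fold of pool 1. Its knockout arrays read alike and lay between pools that lay far apart, so that the difference from both, 0.17 ± 0.31 (SE), was smaller than its error (limma adjusted p between 0.801 and 0.997, as for all 40 genes). In Cy3 it read 10.23 and 10.31 in pool 2, against 11.22 in pool 1, the same order as in Cy5.

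Mcm4 read 11.14 and 11.01 on the knockout arrays, against 11.28 in pool 1 and 10.71 in pool 2, again between the pools. Mcm3 read 9.92 and 9.81, against 9.94 in pool 1 and 9.80 in pool 2, with 0.15 between the pools. Both knockout arrays thus lay inside the wild-type range for these subunits. Mcm2 read 8.18 and 7.93 on the knockout arrays, against 8.45 in pool 1 and 7.96 in pool 2. Mcm5 read 10.01 and 9.68, against 10.28 in pool 1 and 9.83 in pool 2. Mcm7 read 10.84 and 10.61, against 11.15 in pool 1 and 10.75 in pool 2. For these 3 subunits the second knockout array was below pool 2 and the first above it, so the groups overlapped. Over the 6 subunits knockout was below pool 1 in 6 of 6, with a median of -0.34, although with the 75th percentile this held in 4 of 6. Both knockout arrays were above pool 2 in 3 of 6, and with the 75th percentile in 6 of 6. Pool 2 was below pool 1 in 6 of 6, with medians of -0.46 in Cy5 and -0.37 in Cy3, and in 6 of 6 under each scaling of Cy5 tried. A second Mcm3 probe gave a wider gap, with pool 2 minus pool 1 at -0.55.

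Other genes of origin loading and of the fork divided in the same way. Pcna, the sliding clamp, read 11.08 and 10.89 on the knockout arrays, against 11.34 in pool 1 and 10.62 in pool 2. Uhrf1, which keeps DNA methylation on newly copied strands, read 9.89 and 9.88, against 10.10 in pool 1 and 9.35 in pool 2. Both genes lay between the pools, with pool 2 at 0.605-fold and 0.592-fold of pool 1. The second Uhrf1 probe gave a like gap between the pools, -0.75 beside -0.76. Prim1, the catalytic subunit of primase, read 9.93 and 9.63 on the knockout arrays, against 10.02 in pool 1 and 9.50 in pool 2. Cdt1, an origin loading factor, read 9.89 and 9.84, against 9.92 in pool 1 and 9.57 in pool 2. These also lay between the pools, Cdt1 close to pool 1. Cdc6, the partner of Cdt1, and E2f1, itself an E2F factor, were close on all 4 arrays, with differences between knockout and wild type of -0.030 and -0.018. A second Cdc6 probe was at 0.13, but it was not well above background in pool 2 and entered through the knockout arrays.

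In 8 of 21 replication genes, against 17.1% of all genes, both knockout arrays were lower than both pools, though none passed the test. Against pool 2 alone the count was the same 8 of 21, close to the 36.4% of all genes. Against pool 1 alone it was 20 of 21, so the excess over 17.1% rests on the 1 pool 1 array. Lmnb1, which encodes lamin B1 of the nuclear lamina, read 9.58 and 9.60 on the knockout arrays, against 10.05 in pool 1 and 10.24 in pool 2. The difference was -0.55 ± 0.12 (SE), or 0.682-fold, with an unadjusted p of 0.0074 and an adjusted p of 0.801 in limma. Its groups did not overlap, and it was the gene of the 40 with the largest difference in size. Rrm2, the regulatory subunit of ribonucleotide reductase, read 7.39 and 7.49 on the knockout arrays, against 7.66 in pool 1 and 7.77 in pool 2, a difference of -0.27 ± 0.12 (SE). Tyms, thymidylate synthase, read 9.74 and 9.67, against 10.04 in pool 1 and 9.88 in pool 2, with -0.26 ± 0.12, and its second probe gave -0.25. Both enzymes supply deoxynucleotides, and both had groups that did not overlap. Ccne1, the cyclin that starts S phase, read 8.78 and 8.83, against 9.08 in pool 1 and 9.04 in pool 2, but a second, dimmer Ccne1 probe showed a difference of 0.00. Pola1, the catalytic subunit of DNA polymerase alpha, read 7.35 and 7.28, against 7.50 in pool 1 and 7.64 in pool 2. Rfc4, a subunit of the clamp loader, and Fen1, the nuclease that trims Okazaki fragments, had differences of -0.23 and -0.21. E2f1, the last of the 8, was barely below, at 7.501 and 7.527 against 7.534 in pool 1 and 7.531 in pool 2. With the 75th percentile, both knockout arrays were below pool 2 in 4 replication genes in place of 8. Mean knockout minus pool 2 then turned positive for Tyms (0.14), Ccne1 (0.048), Rfc4 (0.17) and Fen1 (0.044). It stayed negative for Lmnb1 (-0.35), Rrm2 (-0.27), Pola1 (-0.31) and E2f1 (-0.0084). The large subunit of ribonucleotide reductase, Rrm1, and the thymidine kinase Tk1 had differences of -0.17 and -0.074, below pool 1 on both knockout arrays and overlapping pool 2.

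Among the mitotic genes, 8 of 19 lay between the pools with pool 1 highest, as Mcm6 did, and 5 of them follow. Ccnb2, cyclin B2, read 10.88 and 10.62 on the knockout arrays, against 10.95 in pool 1 and 10.34 in pool 2. Cdk1, the kinase that cyclin B activates, read 8.12 and 8.02, against 8.23 in pool 1 and 7.81 in pool 2. Cdc20, which turns on the anaphase-promoting complex, read 10.61 and 10.39, against 10.80 in pool 1 and 10.24 in pool 2. In all of these both knockout arrays lay between the pools, and pool 2 was 0.654-fold of pool 1 for Ccnb2 and 0.681-fold for Cdc20. Birc5, survivin of the chromosomal passenger complex, read 10.91 and 10.80 on the knockout arrays, against 11.17 in pool 1 and 10.68 in pool 2. Plk1, Polo-like kinase 1, read 10.00 and 9.73, against 10.01 in pool 1 and 9.65 in pool 2. These too fell between the pools, Plk1 near pool 1 on 1 knockout array and near pool 2 on the other.

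Ccna2, cyclin A2, read 9.33 and 9.23 on the knockout arrays, against 9.67 in pool 1 and 9.40 in pool 2. It was below both pools, with a difference of -0.26 ± 0.14 (SE), and so were Ccnb1 (cyclin B1) at -0.11, the checkpoint kinase gene Bub1 at -0.11 and the centromeric histone gene Cenpa at -0.078. These are 4 of 19 mitotic genes, against 17.1% of all genes. They were also the only mitotic genes with both knockout arrays below pool 2, against 36.4% of all genes. With the 75th percentile, mean knockout minus pool 2 turned positive for Ccna2 (0.16). It stayed negative for Ccnb1 (-0.085), Bub1 (-0.12) and Cenpa (-0.37). The 3 Ccnb1 probes did not give the same sign, with -0.15 and 0.063 for the other 2. Tpx2, an activator of Aurora A on the spindle, was the only gene of the 40 above both pools, at 8.36 and 8.32 on the knockout arrays, against 8.25 in pool 1 and 8.19 in pool 2 (0.12 ± 0.11, SE). Nusap1, a spindle microtubule protein, read 8.43 and 8.23, against 8.73 in pool 1 and 8.37 in pool 2. It had the largest difference from pool 1 among mitotic genes, -0.40, and overlapped pool 2. The kinase gene Aurka and the ubiquitin-conjugating enzyme gene Ube2c, which acts with the anaphase-promoting complex, stood at -0.062 and -0.10 and overlapped pool 2 as well.

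The kinesins Kif11, Kif20a and Kif23, the checkpoint gene Bub1b, the kinetochore motor Cenpe and the topoisomerase gene Top2a differed by -0.041 to 0.025. Their SEs were 0.111 to 0.138, so none of these differences exceeded its error. Second probes gave other values for Top2a (-0.40), Cenpe (0.25) and Kif23 (0.12). That of Cenpe was well above background on both knockout arrays and on neither wild-type array. It thus entered only through the genotype in which it read higher. The Cenpe probe used for the gene was not well above background in pool 2. Gins2, Cenpf and Mki67 had no probe matched by accession. The only probe of Aurkb, the kinase of the chromosomal passenger complex, fell in a dark patch of the pool 1 array, and it read 6.55 and 6.71 on the knockout arrays, against 6.83 in pool 2. Ttk, a spindle checkpoint kinase, was well above background on 1 array only, that of knockout replicate 1.

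The knockout arrays themselves differed in the same direction for most of these genes. Replicate 2 was below replicate 1 in 15 of 21 replication genes and 18 of 19 mitotic genes, against 47.4% of all genes. The median differences were -0.062 and -0.10, smaller than the distance between the wild-type pools.

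On the array that knockout and pool 2 shared, the log ratio of Cy5 over Cy3, less the same ratio of the pool 2 self array, gave a comparison within 1 array. It was above 0 in 7 of 21 replication genes and 10 of 19 mitotic genes, against 54.7% of all genes, with medians of -0.059 and 0.015 (0.033 for all genes). Without that subtraction it was above 0 in 9 and 13 genes, against 56.4% of all genes. With median centring in place of loess the replication median was 0.026. Mcm6 stood highest at 0.68 (1.61-fold), followed by Uhrf1 at 0.53 and Cdt1 at 0.44, with Pcna at 0.28 and Mcm4 at 0.25. Lmnb1 stood lowest at -0.75 (0.596-fold), followed by Tyms at -0.34, Aurka at -0.30 and Rrm2 at -0.29. This array shares its knockout channel and the pool 2 self array with the Cy5 values above, and it has no replicate.

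Wider lists of the same processes had smaller median differences from pool 1, and whether they differ from the 40 was not tested. Of 42 further replication genes, both knockout arrays were below pool 1 in 27, with a median of -0.095, and of 49 further mitotic genes in 32, with a median of -0.11. Cell cycle regulators (cyclin D genes, CDK inhibitors, Rb and E2F families) were below it in 14 of 29, with a median of -0.056, where 38.0% of all genes were below it. Under the 75th percentile the counts were 19, 23 and 14, against 30.2% of all genes. Pool 2 was below pool 1 in 35 of 42, 42 of 49 and 15 of 29, against 54.6% of all genes. None of these genes passed limma at an adjusted p of 0.05, with 0 called in each list, and at an unadjusted p under 0.05 there were 0, 1 and 1.

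**Figure D4:**
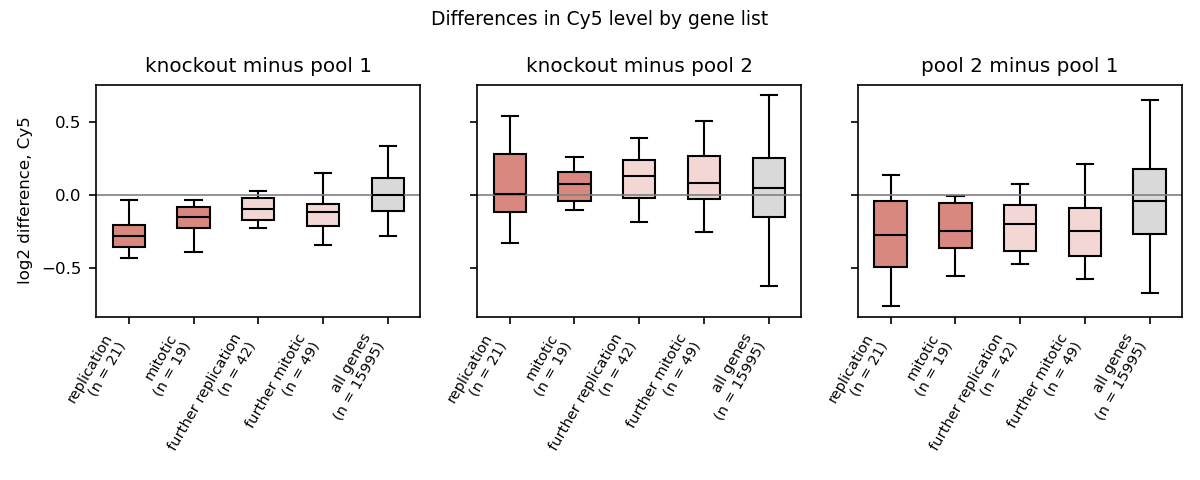
Log2 Cy5 differences for replication genes (n = 21), mitotic genes (n = 19), further replication genes (n = 42), further mitotic genes (n = 49) and all genes (n = 15995), as knockout minus pool 1, knockout minus pool 2 and pool 2 minus pool 1. Boxes span the quartiles with the median as a line, and whiskers reach the 5th and 95th percentiles. Replication and mitotic boxes lie below 0 against pool 1 in the left panel and below 0 in the right panel.

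Both knockout arrays lay above both pools in 2 further replication genes, 4 further mitotic genes and 3 regulators, against 22.5% of all genes, and below both in 5, 8 and 3, against 17.1%. Those with the smallest unadjusted p are named here. Pttg1, securin, read 10.51 and 10.65 on the knockout arrays, against 10.31 in pool 1 and 10.05 in pool 2 (0.40 ± 0.15, SE). Cdc25b, a phosphatase that activates Cdk1, was higher by 0.37 ± 0.18 (SE). Kif18a and Pbk were lower, at -0.28 and -0.32, and so were the replication genes Rnaseh2a (-0.20), Gins4 (-0.19) and Dtymk (-0.26), while Pold3 was higher (0.15). Among regulators, Cdkn1c, the CDK inhibitor p57, read 9.22 and 9.07, against 9.40 in pool 1 and 9.69 in pool 2 (-0.40 ± 0.15, SE). The antiproliferative genes Btg2 (0.35) and Gadd45a (0.25) were higher in knockout, and Rbl2, of the Rb family, was lower (-0.24). All of the genes named here had adjusted p of 0.801 or above in limma. Kif18a (6.48 to 6.84) and Rbl2 (6.59 to 6.86) were dim. Their levels lay near those at which Ttk was not well above background (6.45 to 6.59).

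Markers of cell types differed between the same arrays. The summed level of the 7 proximal tubule markers measured, all well above background on each array, was 3953 and 2462 on the knockout arrays, against 5654 in pool 1 and 44776 in pool 2. That of the 9 ureteric tip markers was 9413 and 8095 on the knockout arrays, against 11160 in pool 1 and 10015 in pool 2, and both knockout arrays were below pool 1 in 8 of 9 and below pool 2 in 7 of 9, against 38.0% and 36.4% of all genes. That of the 9 principal cell markers was 21927 and 24308, against 17899 in pool 1 and 13878 in pool 2. Both knockout arrays were above both pools in 5 of 9, against 22.5% of all genes. They were below both in 2 (Aqp4 and Avpr2), against 17.1%. Stroma and pericyte markers summed to 4500 and 3758, against 5397 in pool 1 and 3223 in pool 2. Erythroid markers summed to 9868 and 7483, against 11250 in pool 1 and 4270 in pool 2. Of those compared, both knockout arrays were below pool 1 in 7 of 7 stroma and 3 of 3 erythroid genes, against 38.0% of all genes. This also held in 3 of 3 endothelium genes, but in 1 of 6 ureteric epithelium genes. They lay between the pools with pool 1 highest in 5 of 7 stroma and 3 of 3 erythroid genes, against 16.3%. The same held in 1 of 3 endothelium and 0 of 6 ureteric epithelium genes. In these sorted pools fewer cells of a type and less RNA per cell cannot be told apart. The part of these markers, and of the low spike-in signal of pool 2, in the differences of replication and mitotic genes was not tested.

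**Figure D5:**
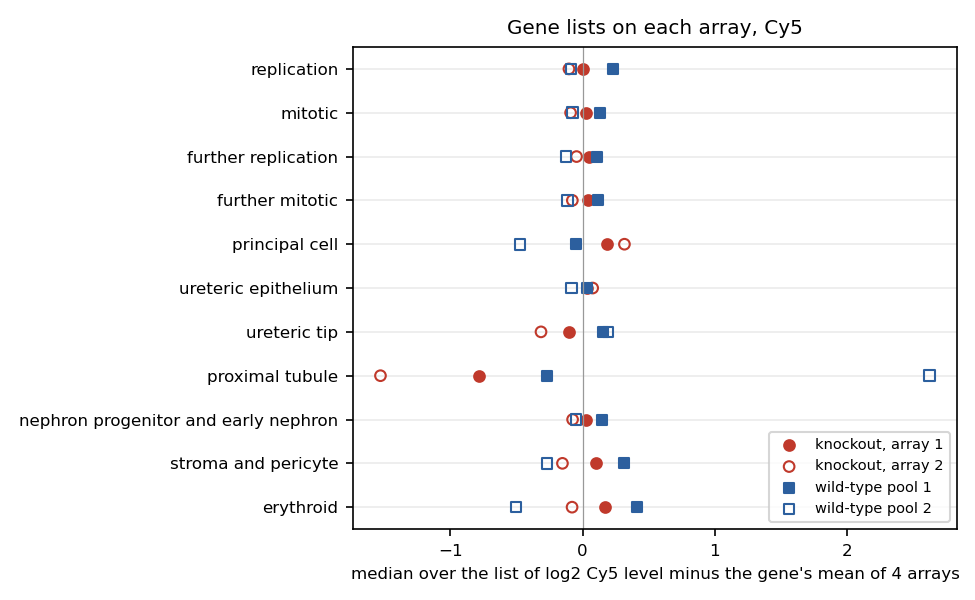
Median over each gene list of the log2 Cy5 level minus the gene's own mean over the 4 arrays, with circles for knockout arrays 1 (filled) and 2 (open) and squares for wild-type pools 1 (filled) and 2 (open). Pool 1 is highest for the replication (0.23) and mitotic (0.14) lists, and pool 2 stands far right for proximal tubule markers (2.63).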

How the data were processed

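The deposited files hold each spot's Cy5 and Cy3 intensity (pixel median) and its local background, read with Agilent Feature Extraction 10.7.3.1 per the file headers. From these intensities log2 values were computed with limma 3.58.1 in R 4.3.3: normexp background correction (offset 50), then quantile normalization of Cy5 over the 4 arrays. Control spots and a dark patch of 431 spots on the pool 1 array were left out. A probe entered when both Cy5 signals of a genotype were well above background and at most 1 array carried an outlier flag, and the brightest probe stood for a gene. Of 41174 probes, 22951 matched a RefSeq symbol by accession. Knockout and wild-type arrays were compared with limma, two-sided, with Benjamini-Hochberg adjustment over 15995 genes. Values against 1 pool have no test other than the fits that leave out 1 array. Log ratios of the shared array were loess normalized. Genes outside the 40 are named where both knockout arrays lay on 1 side of both pools, up to 4 a list by smallest p. The members and lists were chosen with earlier results of these data known. The fit was also run on simulated levels with independent noise for each gene and array. Such noise holds no shared difference between the pools, so it does not show how the fit behaves on these arrays. The number of arrays, 2 a group, limits the precision.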

Additional observations from a re-analysis of the deposited data

How the results depend on the processing

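No gene was called under 12 of the 13 alternatives that gave a test. Among these, log2 Cy5/Cy3 used the almost empty Cy3 of KO_vs_WT replicate 1, so it is not a check of the Cy5 values. Leaving out 1 array at a time gave 0 to 4283 calls, the highest without WT_self replicate 1. With the replicate block, pairing arrays by number, 0 genes were called. In this balanced layout the block cannot change a difference, so the replication median of -0.15 was bound to stay and is no check. Across genes, deviations of same-numbered arrays from their group means correlated at 0.038. With 2 arrays a group, this does not decide whether the numbers pair the arrays. Knockout minus pool 1 had a negative median in both lists under each alternative run. With the 75th percentile in place of quantile normalization, which moved the median of all genes for pool 2 minus pool 1 to 0.081, against -0.040, knockout minus pool 2 was 0.28 for replication and 0.18 for mitotic genes, and pool 2 minus pool 1 was -0.45 and -0.34. Leaving out 1 knockout array gave knockout minus pool 2 medians of -0.028 to 0.089 for replication genes. Pool 2 minus pool 1 for mitotic genes was -0.15 in Cy3 of the self arrays. The shared array gave a replication median of 0.026 with median centring.

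Of 519 single-gene values, 451 kept their sign and side of the threshold, 4 passed it (those without WT_self replicate 1 given above) and 64 changed sign. The values of the replicate block, which are among the 519, could not change sign. The differences that changed sign when 1 array was left out ranged as follows: Mcm2 -0.39 to 0.096, Mcm3 -0.079 to 0.068, Mcm4 -0.21 to 0.37, Mcm5 -0.43 to 0.011, Mcm6 -0.28 to 0.62, Pcna -0.36 to 0.37, Rrm1 -0.35 to 0.0080, Tk1 -0.20 to 0.053, Cdc6 -0.10 to 0.046, Cdt1 -0.054 to 0.29, Prim1 -0.23 to 0.28 and Uhrf1 -0.22 to 0.54 among replication genes. Among mitotic genes they were Ccnb2 -0.20 to 0.41, Cdk1 -0.16 to 0.26, Cdc20 -0.30 to 0.26, Plk1 -0.15 to 0.21, Aurka -0.24 to 0.11, Bub1b -0.15 to 0.10, Birc5 -0.32 to 0.17, Kif11 -0.15 to 0.081, Kif20a -0.039 to 0.089, Kif23 -0.12 to 0.079, Cenpe -0.038 to 0.019, Top2a -0.14 to 0.060 and Ube2c -0.23 to 0.017. With the 75th percentile, Mcm3 (0.19), Mcm7 (0.0070), Rrm1 (0.021), Tk1 (0.13), Cdc20 (0.19), Aurka (0.13), Birc5 (0.16), Top2a (0.068) and Ube2c (0.089) changed sign. With the scanner software's processed signal Mcm4 (-0.11), Aurka (0.039), Birc5 (0.032), Kif20a (-0.0068) and Kif23 (0.079) did. With log2 Cy5/Cy3 these were Mcm4 (-0.014), Cdc6 (0.13), Cdk1 (-0.011), Plk1 (-0.075), Birc5 (0.11), Cenpa (0.064), Cenpe (0.057) and Ube2c (0.029). These 8 sign changes rest partly on KO_vs_WT replicate 1, whose Cy3 had almost no signal, and are not evidence on direction. With the mean of probes they were Mcm3 (0.071), Cdc6 (0.049), Kif23 (0.050) and Cenpe (0.12), and with the dark patch kept Pcna (-9.7e-05). The Cdc6 and Cenpe means include the second probes that entered only through the knockout arrays. The cause was not tested, except that leaving out 1 wild-type array leaves the other pool alone.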
